A study of Oncorhynchus mykiss with 6 samples.

Results

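The sequences described here are the miR-23, miR-24 and miR-27 forms in a small RNA table of rainbow trout (Oncorhynchus mykiss) liver. A row was taken when its miRNA name held the whole number 23, 24 or 27, with any paralogue letter, arm or end variant, and this gave 50 of the 1389 sequences in the table. Of the 50, 14 were miR-23, 14 were miR-24 and 22 were miR-27. The rule goes by name alone. Libraries came from 3 socially subordinate (SS) fish, named 4A, 6A and 1B, and from 3 socially dominant (SD) fish, named 4B, 6B and 21A, with 1 library per fish. All 6 fish were juveniles labelled as strain Walbaum and genotype wild type, and all had been held as size-matched pairs that interacted for 4 d before the liver was taken. Isolated fish were not analysed here. Dominant fish took nearly all of the food and subordinate fish in effect fasted with raised plasma cortisol, according to the study's methods, so that status, feeding and cortisol cannot be told apart in these groups.

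MicroRNAs are short RNAs that guide Argonaute proteins to target transcripts, mainly through the seed, the bases 2 to 8 from the 5′ end. A precursor hairpin can give a mature strand from each arm, named 5p and 3p. In vertebrates miR-23, miR-27 and miR-24 are encoded close together and are transcribed as clusters, and fish carry additional copies with their own letters. In mammals miR-27 has been tied to the control of lipid metabolism in liver and of fat cell differentiation, miR-23a to gluconeogenesis in mouse liver and miR-24 to hepatic lipid synthesis. These miRNAs are also abundant in mammalian endothelium, the lining of blood vessels. The comparison asked whether their forms differed between the livers of SS and SD trout.

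The leading 3p forms are shown because they carried nearly all of the reads, with the seed in capitals and bases written as T as in the table. A name gives the species of the reference miRNA (dre, zebrafish; ssa, Atlantic salmon; fru, fugu; ola, medaka; ccr, common carp) and the change in length at the left (L) or right (R) end.
dre-miR-27c-3p: tTCACAGTggttaagttctgc
ssa-miR-27d-3p: tTCACAGTggttaagttctg
dre-miR-27b-3p_R-1: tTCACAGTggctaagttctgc
ccr-miR-27a: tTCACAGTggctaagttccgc
ola-miR-27d-3p_R+3: tTCACAGTggctaagttcagt
dre-miR-23a-3p_R-1: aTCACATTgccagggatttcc
fru-miR-23b_R-1: aTCACATTgccagggattacc
fru-miR-24-3p_R-2: tGGCTCAGttcagcaggaac
ssa-miR-24b-3p_R-2: tGGCTCAGttcagcagaaac

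All of the miR-27-3p forms printed above had the same seed, and the paralogues differed downstream of it. Counted from the 5′ end, miR-27b-3p differed from miR-27c-3p by T11C, and ccr-miR-27a differed from miR-27c-3p by T11C and T19C. The ola-miR-27d-3p_R+3 sequence differed from miR-27c-3p by T11C, T19A and C21T. The salmon name ssa-miR-27d-3p had the bases of the zebrafish name dre-miR-27c-3p without the last base, at 20 nt against 21 nt. The letters therefore do not mean the same in each species, and these forms are called miR-27c/d below, while ola-miR-27d-3p_R+3 is a different sequence. The change between miR-23a-3p and miR-23b-3p was T19A, and that between miR-24-3p and miR-24b-3p was G17A. Of the reads of the 50 members, 85.6% had the miR-27-3p seed TCACAGT, 8.57% the miR-23-3p seed TCACATT and 3.61% the miR-24-3p seed GGCTCAG.

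The 5p forms are shown because the miR-27-5p strands held the one sequence whose groups did not overlap.
ssa-miR-27d-5p: aGGACTTAgcacacatgtgaaca
ola-miR-27c-5p_L+1R+1_1ss12CA: cAGGACTTagcacacatgtgaaca
dre-miR-27b-5p_R-1: aGAGCTTAgctgattggtgaac
ssa-miR-23a-3-5p_R+1: gGAATTCCtggtagagtgattt
ssa-miR-24b-5p: tGCCTACTgagctgataacagt
fru-miR-24-5p_L-1: tGCCTACTgaactggtatcagt
ssa-miR-24a-4-5p: tGCCTGCTgtgctgataatcagt

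The ola-miR-27c-5p form was ssa-miR-27d-5p with 1 more base at the 5′ end, which moved its seed from GGACTTA to AGGACTT. The miR-27b-5p form had another seed, GAGCTTA, and differed from ssa-miR-27d-5p at 7 of the 22 bases compared. The 24b-5p and fru-miR-24-5p_L-1 forms shared the seed GCCTACT and differed by G11A, A15G and A18T.

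The libraries held 2420009 to 6061431 mappable reads and 1183289 to 3382970 counts in the table, with SD 4B the shallowest and SD 21A the deepest. SD 4B had the most raw reads, 10278996, but the lowest share with a 3′ adapter, at 30.2% against 42.9 to 81.0% in the other libraries. The hepatocyte marker miR-122 took 35.7 to 40.4% of the counts in each library. Markers of other cell types were present too, with stroma at 5.08% and endothelium at 1.02% of the counts over all libraries. Markers of erythrocytes, epithelium, leukocytes and pancreas were at 0.304%, 0.181%, 0.107% and 0.0152%. Markers of muscle and neurons were lowest, at 0.0033% and 0.0055%. Of 5 tested miR-122 sequences, 0 passed an adjusted p of 0.05 in edgeR, 1 passed in DESeq2 and 2 had an unadjusted p under 0.05. The most abundant, dre-miR-122_R-1, had a log2 fold change, SS over SD, of 0.05 ± 0.15 (SE; edgeR adjusted p = 0.906). The rarer forms ran from -0.32 to 1.55. Of the markers of other cell types that were tested (erythrocytes, leukocytes, endothelium, stroma, muscle, pancreas, epithelium and neurons), 0 passed in edgeR or DESeq2 and 0 had an unadjusted p under 0.05. Over all sequences, 0.592% passed in edgeR, 7 of 338 passed in DESeq2 and 10.9% had an unadjusted p under 0.05. The median log2 fold change, SS over SD, of these other markers ran from -0.31 for erythrocytes (0 of 6 sequences above 0) to 0.89 for pancreas (4 of 4), beside -0.02 for all sequences.

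The members took 120508 of the 11400817 counts in the table, or 1.06%. Of these member reads 87.3% were miR-27, 8.74% miR-23 and 3.97% miR-24. The reads were concentrated in few forms, since the top 2 sequences, dre-miR-27c-3p and dre-miR-27b-3p_R-1, held 76.7% and the top 5 held 94.5%. Of the 50 members, 26 had reads in every library and 20 had a total under 10. In 27 of the 50, counts were fractional, because a read that fitted several sequences had been shared among them, and the values of such paralogues are not independent. The filter on low counts left 18 of the 50 for testing, and the other 32 are only counted or summed.

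As a share of all counts in the table, the 3 miRNAs together were 0.811, 1.03 and 1.11% in SS fish 4A, 6A and 1B, against 0.867, 1.37 and 1.13% in SD fish 4B, 6B and 21A. The groups overlapped. The mean was 0.984 ± 0.156% in SS and 1.12 ± 0.250% in SD fish (SD of the values, n = 3 each; two-sided exact permutation test, p = 0.4, adjusted p = 0.533 over 4 shares). With 3 against 3 fish this test cannot give a p below 0.1. Each miRNA alone also overlapped, at 0.862 ± 0.153% in SS and 0.977 ± 0.274% in SD fish for miR-27, 0.0865 ± 0.0206% in SS and 0.0996 ± 0.0270% in SD fish for miR-23, and 0.0358 ± 0.00169% in SS and 0.0434 ± 0.0101% in SD fish for miR-24 (n = 3 each; exact permutation test, adjusted p of 0.533, 0.6 and 0.533). In bulk liver, fewer cells of a type and less RNA per cell cannot be told apart.

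**Figure D1:**
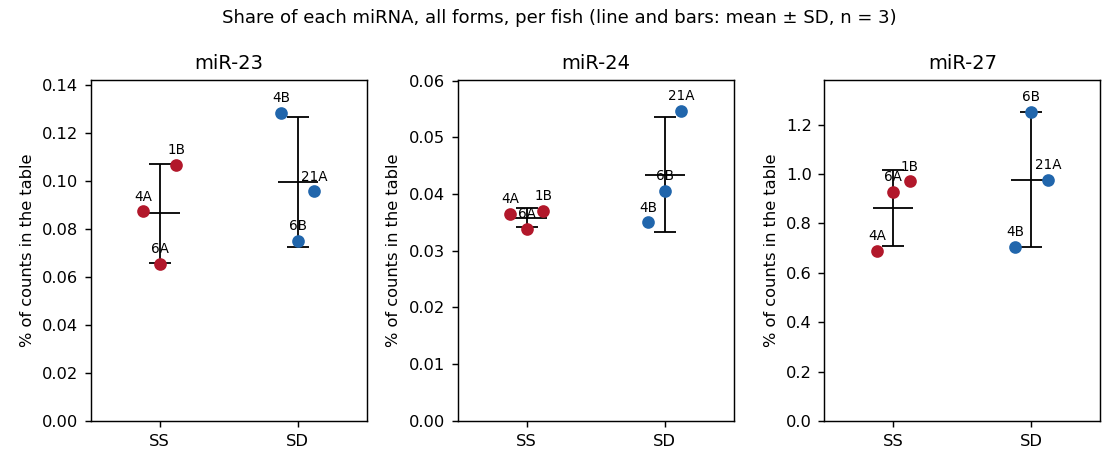
Share of each of the 3 miRNAs, all forms summed, in percent of the counts in the table (vertical axis) for each SS fish (red, left) and SD fish (blue, right), with the mean and SD over 3 fish. In each panel the SS and SD fish overlap, and SS fish span 0.687 to 0.970% and SD fish 0.704 to 1.25% for miR-27.

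In the fit across all 338 sequences left by the filter, 0 of the 18 members passed an adjusted p of 0.05 (edgeR quasi-likelihood test with Benjamini-Hochberg adjustment), beside 2 of 338 sequences, or 0.592%. DESeq2 and limma also called 0 members. At an unadjusted p under 0.05, 1 member was higher in SS and 0 were lower, beside 7.1% of all sequences higher and 3.85% lower. The groups did not overlap for 1 of the 18 members, beside 18.3% of all sequences. The fitted value was above 0 for 6 members (33.3%, beside 49.7% of all sequences) and below 0 for 12 (66.7%, beside 50.3%), and the median log2 fold change, SS over SD, was -0.12 for the members and -0.02 for all sequences tested. With all 6 libraries, the shares that passed, that had an unadjusted p under 0.05 or that did not overlap were no higher among the members than over the whole table. The unadjusted count changed when single libraries were left out. Without SD 4B it was 4 of 18 members (22.2%, beside 14.5% of all sequences), all lower in SS. These were dre-miR-27b-3p_R-1, fru-miR-27b_R+1, dre-miR-27b-5p_R-1 and fru-miR-24-3p_R-2, with adjusted p of 0.306 to 0.338. The miR-27b-3p forms among them share their bases and are not separate evidence. With forms of the same bases summed, it was 2 of 14 member sums without SD 4B (14.3%, beside 14.1% of all rows). The count was 0 of 18 without SS 4A, SS 6A, SS 1B or SD 21A, beside 9.35, 14.7, 8.71 and 7.52% of all sequences. In these fits the log2 fold change of ssa-miR-27d-5p, the 1 member counted with all 6 libraries, was 0.57, 0.71, 0.74 and 0.56. With all libraries it was 0.66. Its SE was 0.30 to 0.33 in these fits, which had fewer fish, against 0.27 with all libraries. Summing the forms by miRNA, paralogue letter and arm gave 15 member sums, of which 0 passed in edgeR or DESeq2 and 1, the miR-27d-5p form alone, had an unadjusted p under 0.05, beside 0.694% of all 288 sums passing and 12.2% at the unadjusted level.

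**Figure D2:**
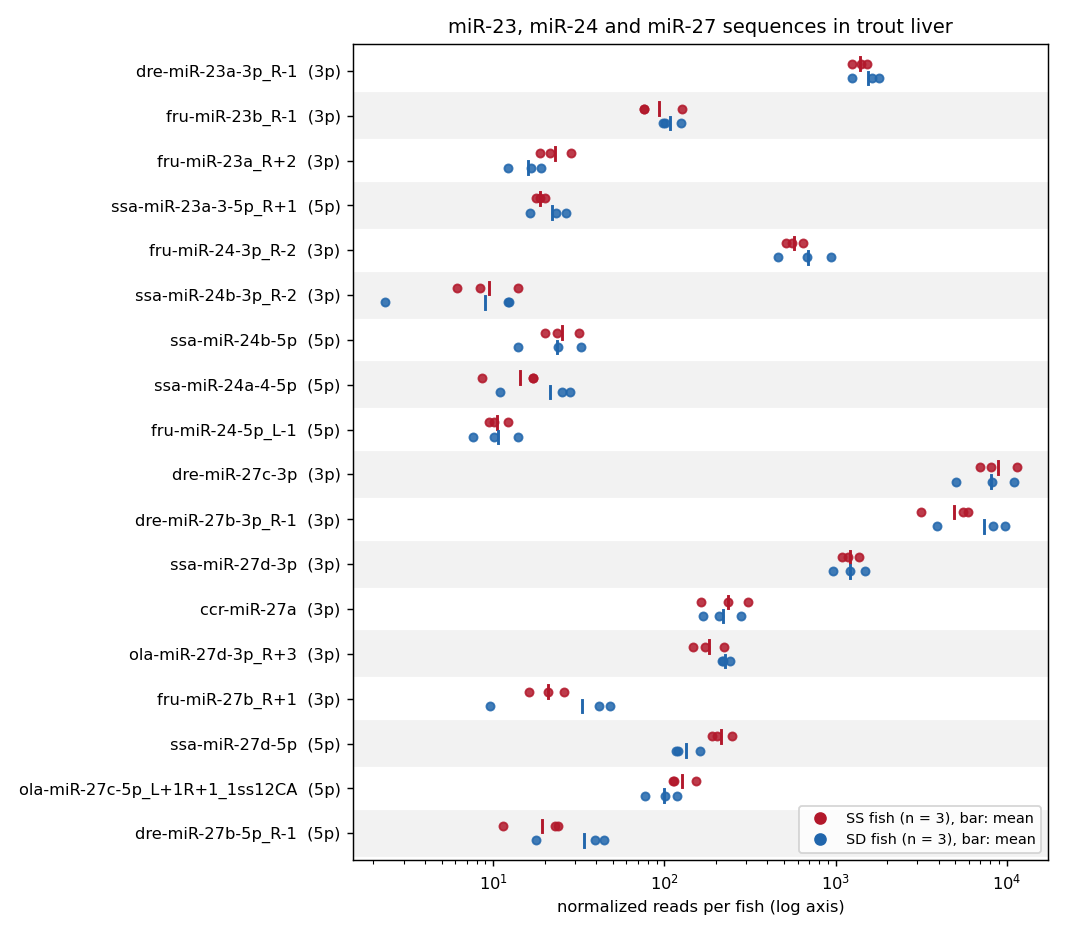
Normalized reads (horizontal log axis) of the 18 tested sequences, with the arm in brackets, in each SS fish (red, upper row of each sequence) and SD fish (blue, lower row), and short bars for the means. Only ssa-miR-27d-5p has all SS fish above all SD fish, at 189 to 249 in SS against 117 to 163 in SD fish.

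The 3p strand of miR-27c/d was the most abundant member. Normalized reads, the deposited counts divided by the authors' library size parameter, were 6934, 11459 and 8118 for dre-miR-27c-3p in SS fish 4A, 6A and 1B, against 5022, 11099 and 8204 in SD fish 4B, 6B and 21A. SS 6A and SD 6B were high and SD 4B was low, and the groups overlapped. The log2 fold change was 0.09 ± 0.32 (SE; edgeR adjusted p = 0.920). Its 20 nt form, ssa-miR-27d-3p, had 1177, 1370 and 1089 normalized reads in SS fish, against 972, 1487 and 1209 in SD fish, again with overlap. The log2 fold change of this shorter form was -0.04 ± 0.24 (adjusted p = 0.937). The shorter form made up 10.7 to 14.5% of the pair in SS fish and 11.8 to 16.2% in SD fish, so the choice of 3′ end overlapped too.

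For miR-27b-3p, the dre-miR-27b-3p_R-1 sequence had 3142, 5953 and 5584 normalized reads in SS fish 4A, 6A and 1B, against 3928, 9770 and 8342 in SD fish 4B, 6B and 21A. Both SS 4A and SD 4B were low, and the overlap came from SD 4B, which lay below 2 of the SS fish. The mean was 4893 ± 1527 in SS and 7347 ± 3046 in SD fish (n = 3 each), and the log2 fold change was -0.62 ± 0.38 (edgeR adjusted p = 0.533). The longer form fru-miR-27b_R+1 had 16.2, 25.9 and 20.9 normalized reads in SS fish, against 9.53, 48.3 and 41.4 in SD fish. As with the main form, SD 4B was the lowest fish and the other SD fish were above all SS fish, with a log2 fold change of -0.73 ± 0.57 (adjusted p = 0.633).

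The less abundant miR-27-3p paralogues also overlapped between groups. The ccr-miR-27a sequence had 163, 237 and 307 normalized reads in SS fish, against 168, 210 and 279 in SD fish, and its log2 fold change was 0.08 ± 0.32 (adjusted p = 0.920). The ola-miR-27d-3p_R+3 sequence had 148, 223 and 174 normalized reads in SS fish, against 242, 221 and 217 in SD fish. Here SS 6A lay within the SD range and the other SS fish below it, and the log2 fold change was -0.35 ± 0.24 (adjusted p = 0.589).

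On the 5p arm, ssa-miR-27d-5p had 249, 203 and 189 normalized reads in SS fish 4A, 6A and 1B, against 119, 163 and 117 in SD fish 4B, 6B and 21A. Every SS fish was above every SD fish, with a mean of 214 ± 31.3 in SS and 133 ± 25.7 in SD fish (n = 3 each). The log2 fold change was 0.66 ± 0.27, with an unadjusted p of 0.0414 in edgeR that did not pass adjustment (adjusted p = 0.432). This miRNA is among those the study picked on these same libraries, so its direction here is not independent evidence. The form with the extra 5′ base, ola-miR-27c-5p_L+1R+1_1ss12CA, had 153, 112 and 113 normalized reads in SS fish, against 77.5, 101 and 119 in SD fish. SD 21A was above 2 of the SS fish, and the log2 fold change was 0.32 ± 0.30 (adjusted p = 0.684). Summed, these miR-27c/d-5p forms had a mean of 340 ± 54.4 in SS and 232 ± 33.7 normalized reads in SD fish, without overlap (log2 fold change 0.55 ± 0.25, adjusted p = 0.445). Of the 14 member sums by shared sequence that were tested, this was 1 without overlap, or 7.14%, beside 18.6% of all 334 rows in that fit, and 0 had an unadjusted p under 0.05, beside 10.2%. Of these rows 0.599% passed the adjusted threshold, and 0 of the member sums in edgeR or DESeq2. The form with the extra base was 38.1, 35.6 and 37.4% of that sum in SS fish 4A, 6A and 1B, against 39.4, 38.4 and 50.5% in SD fish 4B, 6B and 21A. Each SS share was below each SD share, with SS 4A close to SD 6B, and SD 21A stood apart from the other 5 fish. This share was chosen after its values were seen and has no test. Among ratios between tested rows of the whole table, 17.3% had no overlap.

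The opposite strand of miR-27b, dre-miR-27b-5p_R-1, had 11.36, 23.05 and 23.77 normalized reads in SS fish, against 17.8, 39.1 and 44.5 in SD fish. SD 4B lay between the SS fish and the other SD fish were above all of them, as for miR-27b-3p, and the log2 fold change was -0.85 ± 0.48 (edgeR adjusted p = 0.514). This was the lowest fitted value among the 18 members, and it rested on 180 reads over the 6 libraries.

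**Figure D3:**
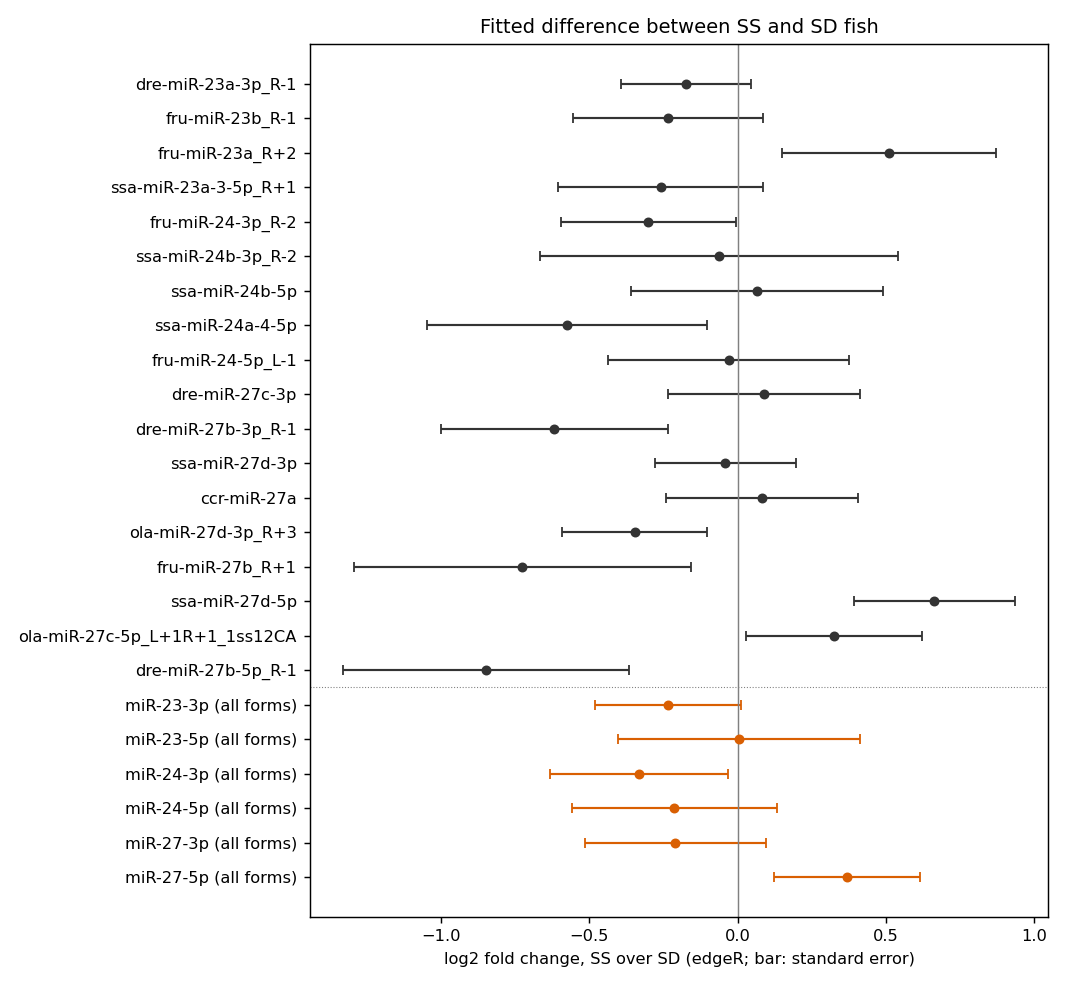
Log2 fold change, SS over SD, with its standard error (horizontal axis) for the 18 tested sequences (dark) and for the sums of all forms by miRNA and arm (orange), from edgeR. The values run from -0.85 for dre-miR-27b-5p_R-1 to 0.66 for ssa-miR-27d-5p, and none passed the adjusted threshold.

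Ratios within a library do not depend on how the library was scaled. The ratio of miR-27b-3p to miR-27c/d-3p reads was 0.389, 0.466 and 0.608 in SS fish 4A, 6A and 1B, against 0.656, 0.780 and 0.890 in SD fish 4B, 6B and 21A. On the other arm, the ratio of miR-27b-5p to miR-27c/d-5p reads was 0.0282, 0.0731 and 0.0786 in SS fish, against 0.0903, 0.148 and 0.189 in SD fish. Both ratios were lower in every SS fish than in every SD fish, with the fish in the same order on both arms. The arms are cut from the same precursors, so this shared order is not separate evidence. The miR-27b-5p form had only 14, 16 and 25 reads before scaling in SS fish, against 14, 32 and 79 in SD fish. The miR-27c/d-5p sum holds ssa-miR-27d-5p, which the study picked on these same libraries. The 3p ratio averaged 0.488 ± 0.111 in SS and 0.775 ± 0.117 in SD fish, and the 5p ratio averaged 0.0600 ± 0.0276 in SS and 0.142 ± 0.0496 in SD fish (n = 3 each). These ratios were chosen after their values were seen and are given as a description with no test. Among all 91 ratios between the 14 tested member sums by shared sequence, 10 had groups that did not overlap, or 11%, beside 17.3% of the 54615 such ratios in the whole table. The miR-27c/d-5p sum was in 6 of these 10 ratios and the miR-27b-5p sum in 4.

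**Figure D4:**
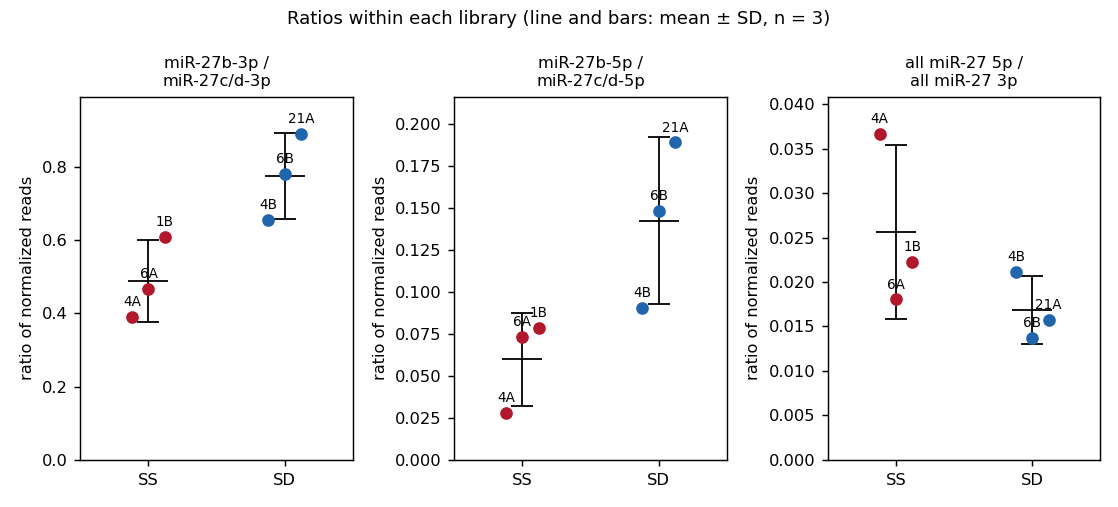
Ratios of normalized reads within each library (vertical axes) for each SS fish (red, left) and SD fish (blue, right), with the mean and SD over 3 fish. The miR-27b to miR-27c/d ratio is lower in all SS fish on both arms (at most 0.608 in SS and at least 0.656 in SD fish for 3p), while the ratio of all miR-27 5p to all 3p reads overlaps.

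For miR-23, the leading form dre-miR-23a-3p_R-1 had 1408, 1246 and 1526 normalized reads in SS fish 4A, 6A and 1B, against 1786, 1241 and 1640 in SD fish 4B, 6B and 21A. SD 6B was the lowest fish and the other SD fish were above all SS fish, and the log2 fold change was -0.17 ± 0.22 (edgeR adjusted p = 0.759). A longer form of the same bases, fru-miR-23a_R+2 at 24 nt, had 18.7, 21.6 and 28.5 normalized reads in SS fish, against 19.1, 12.2 and 16.5 in SD fish. It overlapped only through SS 4A and SD 4B, with a log2 fold change of 0.51 ± 0.36 (adjusted p = 0.590). As a percent of the pair it was 1.31, 1.70 and 1.83% in SS fish, against 1.06, 0.975 and 0.998% in SD fish. This share was higher in every SS fish, but it was also chosen after its values were seen and has no test. Among ratios between tested rows of the whole table, 17.3% had no overlap. Before scaling, the longer form had only 23, 15 and 30 reads in SS fish, against 15, 10 and 29.3 in SD fish.

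The paralogue fru-miR-23b_R-1, which differs from miR-23a-3p outside the seed, had 75.9, 76.4 and 127 normalized reads in SS fish, against 98.5, 101 and 125 in SD fish. SS 1B was the highest fish and the other SS fish the lowest, and the log2 fold change was -0.23 ± 0.32 (adjusted p = 0.763). The ratio of miR-23b-3p to miR-23a-3p was 0.0652 ± 0.0151 in SS and 0.0705 ± 0.0139 in SD fish (n = 3 each) and overlapped. On the 5p arm, ssa-miR-23a-3-5p_R+1 had 17.85, 18.73 and 19.97 normalized reads in SS fish, against 16.5, 23.2 and 26.5 in SD fish, with SS fish inside the SD range and a log2 fold change of -0.26 ± 0.35 (adjusted p = 0.763).

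For miR-24, fru-miR-24-3p_R-2 had 559, 644 and 515 normalized reads in SS fish 4A, 6A and 1B, against 459, 679 and 941 in SD fish 4B, 6B and 21A. SS fish lay close together inside the wider SD range, and the log2 fold change was -0.30 ± 0.29 (edgeR adjusted p = 0.712). The rarer ssa-miR-24b-3p_R-2 had 8.38, 13.9 and 6.18 normalized reads in SS fish, against 2.33, 12.4 and 12.2 in SD fish, and its log2 fold change was -0.06 ± 0.60 (adjusted p = 0.962). SD 4B was the lowest fish here, with under 2 reads before scaling.

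The miR-24-5p forms were all below 35 normalized reads. The ssa-miR-24b-5p sequence had 23.5, 20.2 and 31.9 in SS fish, against 13.98, 24.04 and 32.52 in SD fish (log2 fold change 0.06 ± 0.43, adjusted p = 0.951). The ssa-miR-24a-4-5p sequence, which has a seed of its own, had 17.04, 8.64 and 17.11 in SS fish, against 27.96, 11.003 and 25.37 in SD fish (log2 fold change -0.58 ± 0.47, adjusted p = 0.641). The fru-miR-24-5p_L-1 sequence had 12.2, 10.1 and 9.51 in SS fish, against 10.2, 14.1 and 7.61 in SD fish (log2 fold change -0.03 ± 0.41, adjusted p = 0.965). All 3 overlapped between groups, and differences of the size of these standard errors were not detectable.

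Summed over all forms by miRNA and arm, 0 of the 6 sums passed the adjusted threshold or an unadjusted p under 0.05, beside 0.469% and 8.92% of all 213 sums, and DESeq2 called 0. The miR-27-5p sum was the one without overlap, with 425, 348 and 341 normalized reads in SS fish 4A, 6A and 1B, against 219, 313 and 289 in SD fish 4B, 6B and 21A. Of all 213 sums, 18.8% had no overlap. The mean of this sum was 371 ± 46.5 in SS and 274 ± 49.1 in SD fish (n = 3 each), and its log2 fold change was 0.37 ± 0.25 (adjusted p = 0.605). The other sums overlapped, with log2 fold changes of -0.21 ± 0.31 for miR-27-3p, -0.23 ± 0.25 for miR-23-3p, 0.00 ± 0.41 for miR-23-5p, -0.33 ± 0.30 for miR-24-3p and -0.21 ± 0.35 for miR-24-5p (adjusted p of 0.671 to 0.993).

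Since the arms of a hairpin are cut from the same precursor, the ratio of 5p to 3p reads was compared within each library. For miR-27 it was 0.0366, 0.0180 and 0.0223 in SS fish 4A, 6A and 1B, against 0.0211, 0.0137 and 0.0158 in SD fish 4B, 6B and 21A. The fish overlapped, with SS 4A the highest, and the difference in mean log2 ratio was 0.56 (two-sided exact permutation test, p = 0.2, adjusted p = 0.75 over 6 ratios). The corresponding ratio was 0.0215 ± 0.00636 in SS and 0.0182 ± 0.00370 in SD fish for miR-23, and 0.0889 ± 0.0258 in SS and 0.0857 ± 0.0244 in SD fish for miR-24 (n = 3 each; exact p of 0.4 and 1.0). The 3p strand was thus the main strand of each miRNA in both groups. As a description with no test, ssa-miR-27d-5p over ssa-miR-27d-3p was 0.212, 0.148 and 0.174 in SS fish 4A, 6A and 1B, against 0.123, 0.109 and 0.0966 in SD fish 4B, 6B and 21A, higher in every SS fish. That 3p form is only the 20 nt variant, 10.7 to 14.5% of the miR-27c/d-3p pair in SS and 11.8 to 16.2% in SD fish. The 5p form is among the miRNAs the study picked on these libraries, and 17.3% of ratios between tested rows had no overlap. With the miR-27c/d forms summed on each arm, the ratio was 0.0496, 0.0246 and 0.0328 in SS fish. It was 0.0328, 0.0210 and 0.0250 in SD fish, so the groups overlapped. The ratio of the leading 5p to the leading 3p sum by shared sequence gave exact p of 0.9 for miR-23, 0.3 for miR-24 and 0.5 for miR-27.

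Reads of miR-27-3p were 7.71, 14.3 and 9.10 times those of miR-23-3p in SS fish 4A, 6A and 1B, against 5.44, 16.9 and 10.3 times in SD fish 4B, 6B and 21A. The 6A and 6B fish were the highest of their groups, and the groups overlapped. The ratio of miR-24-3p to miR-23-3p reads was 0.402 ± 0.0911 in SS and 0.436 ± 0.164 in SD fish (n = 3 each), also with overlap. The ratios between these miRNAs thus varied widely from fish to fish within each group.

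The sequences outside the members whose levels ran most like the leading forms over the 6 libraries were found by Pearson r of log2 CPM among 320 sequences, as a description. For dre-miR-27c-3p they were ipu-miR-222a_1ss11TG (r = 0.97), ipu-miR-192 (r = 0.94) and the predicted PC-3p-1796_444 (r = 0.94). For dre-miR-23a-3p_R-1 they were the predicted PC-5p-1827_437 (r = 0.95), ssa-miR-30a-5p (r = 0.92) and ssa-miR-194a-5p (r = 0.92). For fru-miR-24-3p_R-2 they were dre-miR-181a-5p (r = 0.93), dre-miR-10c-5p (r = 0.92) and ssa-miR-26a-5p (r = 0.91). The sequences listed differed among the 3 leading forms. Each list holds the 3 highest of 320 values of r over 6 libraries, so a high r does not by itself show a link. All values share the same 6 libraries and their scaling.

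Related miRNAs were described for comparison. The endothelial marker miR-126 summed to 15357 to 26223 normalized reads in SS fish and 15920 to 19380 in SD fish, which overlapped. Its 3 tested sequences, all forms of 1 miRNA, were all above 0, beside 49.7% of all sequences. Their log2 fold changes were 0.05, 0.07 and 0.31 (edgeR adjusted p of 0.533 to 0.933), with a median of 0.07, beside -0.02 for all sequences. Of miR-128, 5 of 10 sequences were tested and 0 passed in edgeR or DESeq2, with a median log2 fold change of 0.06. Its 3p strand has a seed that overlaps that of miR-27-3p by a shift of 1 base, and the 3p forms ccr-miR-128 and dre-miR-128-3p_R+1 had log2 fold changes of 0.06 ± 0.25 and -0.30 ± 0.35 (adjusted p of 0.920 and 0.732). On the other arm, ssa-miR-128-3-5p was the 1 of the 5 at an unadjusted p under 0.05, beside 10.9% of all sequences. It had 20.3, 50.4 and 32.3 normalized reads in SS fish, against 11.4, 9.78 and 10.7 in SD fish. Its log2 fold change was 1.64 ± 0.42 (edgeR unadjusted p = 0.0051, adjusted p = 0.299). The study lists it among its differentially regulated miRNAs, picked on these same libraries, so its direction is not independent evidence. Of the miRNAs tied to hepatic lipid and glucose metabolism in mammals (miR-29, miR-33, miR-34, miR-103, miR-107, miR-122, miR-143 and miR-148), 21 of 53 sequences were tested, 1 was higher in SS and 0 lower in edgeR, beside 0.592% of all sequences passing, and 3 passed in DESeq2, beside 7 of all 338. An unadjusted p under 0.05 was found for 7 of the 21, beside 10.9% of all sequences, and the median log2 fold change was 0.31, beside -0.02 for all sequences. These 7 include the 2 miR-122 sequences already counted as hepatocyte markers. The list holds several forms and arms of the same miRNAs, which are not separate evidence. The one that passed was ssa-miR-29b-2-5p_L-2, with 1090, 1722 and 1344 normalized reads in SS fish 4A, 6A and 1B, against 456, 414 and 445 in SD fish 4B, 6B and 21A (log2 fold change 1.63 ± 0.23, adjusted p = 0.0213). The call was lost without SS 1B (adjusted p = 0.0789), SD 4B (0.143), SD 6B (0.106) or SD 21A (0.168), and with the number in the fish label as a block (0.444). This list holds miR-29 and miR-148 sequences that the study chose on the same libraries, so its direction is not independent evidence.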

How the data were processed

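Hepatic small RNA of 3 SS and 3 SD trout was sequenced, each fish giving 1 library. After removal of the 3′ adapter, the authors retained sequences between 15 and 32 nt. These were matched to the miRNAs of fish in miRBase 21 by Bowtie, given as version 1.1.1 in the submitters' notes on processing, tolerating 1 mismatch within the leading 16 bases. Expected counts per sequence were deposited, in which reads fitting more than 1 sequence were divided among them. The authors also deposited a normalized signal, here called normalized reads, equal to those counts over a size parameter of each library, where 0 was replaced by 0.001. A deposited read summary gives counts of reads at each filtering step. Prediction classes of the authors were used only for an alternative. Splitting of shared reads can blur differences between near-identical paralogues.

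Counts were rounded, filtered (filterByExpr, minimum count 10), TMM-normalized and compared, SS over SD, by the quasi-likelihood test of edgeR 4.0.16 in R 4.3.3, with Benjamini-Hochberg adjustment over all rows tested and a threshold of 0.05. The standard error was derived from the fold change and its F statistic. The same fit was made after summing by miRNA and arm, by miRNA, letter and arm, and by shared sequence (end-to-end overlap of at least 17 nt with no mismatch). The 12 names without an arm took that of a named form sharing at least 12 nt. Ratios and shares were compared by two-sided exact permutation tests. The edgeR procedure was also run on simulated counts, drawn independently for each sequence and library, without shared reads or paired fish. Table totals were 1183289 to 3382970 counts per library. P-values refer to the difference between SS and SD over these 6 libraries. Except with the replicate block, the fish were treated as independent.

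All tested members were named, with the 3 most similar other sequences per leading form. Members and lists were chosen with earlier results of these data known. Alternatives were DESeq2 1.42.0, RLE and the authors' size factors, no filter or a minimum count of 50, unrounded counts, known miRNAs only, limma 3.58.1 on log2 of normalized reads plus 1 or 10, a replicate block, other read units, each library left out and, chosen after seeing the data, robust dispersion estimates. Tables were made in Python 3.11.15. A trout genome and miRNA annotation were not used here.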

Additional observations from a re-analysis of the deposited data

How the results depend on the processing

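No member sequence or sum passed the adjusted threshold under any alternative it could be fitted in. There were 17 for the sequences, of which 15 held all 18 members (10 members passed the minimum count of 50 and 16 were known miRNAs), and 16 for the shared-sequence sums, where known miRNAs only was not run. Across these the smallest adjusted p of a member sequence was 0.306. The fit on known miRNAs left out dre-miR-27c-3p, the most abundant member, since the authors classed it as predicted. Known miRNAs held 55.5% of the member reads. The fitted direction held in every alternative fitted for 11 of the 18 member sequences and turned in some for 7, none of which passed the threshold in any of them. Over all sequences, 2 were called in the main test, 7 by DESeq2, 18 without a filter on low counts, 0 with a replicate block, and 0 to 6 without 1 library (0 without SS 1B, SD 4B or SD 21A, 1 without SD 6B and 6 without SS 6A). The median log2 fold change was -0.12 for the member sequences and -0.02 for all sequences. With no filter, where 46 members were fitted, it was 0.02 for the members and 0.08 for all 1283 sequences. With the block, 0 of the 18 members had an unadjusted p under 0.05, beside 7.1% of all sequences. The block used the number in the fish labels, which only 4A with 4B and 6A with 6B share. Their deviations from the group means correlated at r = 0.15 and 0.45 over 338 sequences, and the labels do not say what the number marks, so the fish were not treated as paired.

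Signs turned as follows, as log2 fold changes. With the replicate block, fru-miR-24-3p_R-2 was 0.064 (its shared-sequence sum 0.095, the miR-24-3p sum 0.018), ssa-miR-24b-3p_R-2 0.71 and ssa-miR-27d-3p 0.037. For fru-miR-24-5p_L-1 the values were 0.0019 with RLE factors, 0.040 without a filter, 0.011 unrounded, and 0.028 and 0.0079 in limma with 1 and 10 added. For ssa-miR-24b-3p_R-2 they were 0.0068 in DESeq2 and 0.26 and 0.071 in limma. For ssa-miR-27d-3p they were 0.0089 without a filter and 0.0021 and 0.0020 in limma. The miR-23-5p sum was -0.014 with known miRNAs only, and the miR-23 5p to 3p log2 ratio was -0.057 with tested sequences only. The cause was not tested.

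Without 1 library at a time, values ran from -0.18 to 0.31 for ccr-miR-27a, -0.22 to 0.38 for dre-miR-27c-3p (-0.24 to 0.35 for its shared-sequence sum), -0.26 to 0.23 for fru-miR-24-5p_L-1, -0.51 to 0.24 for ssa-miR-24b-3p_R-2, -0.25 to 0.37 for ssa-miR-24b-5p (-0.25 to 0.41 for its sum), -0.24 to 0.12 for ssa-miR-27d-3p and -0.60 to 0.0012 for the miR-24-3p shared-sequence sum. The sums by arm ran from -0.074 to 0.27 for miR-23-5p, -0.50 to 0.022 for miR-24-3p, -0.31 to 0.030 for miR-24-5p and -0.42 to 0.065 for miR-27-3p. Over all alternatives, the lowest value of the miR-27-3p sum was -0.54. The log2 ratios of 5p to 3p ran from -0.15 to 0.29 for miR-24 and -0.37 to 0.14 for the miR-23 shared-sequence sums, and the differences in share, in percentage points, from -0.0255 to 0.00126 for miR-23 and -0.251 to 0.0228 for miR-27. The rarest tested forms were ssa-miR-24b-3p_R-2 with 60.2 reads and fru-miR-24-5p_L-1 with 65 over all libraries, and the part played by depth was not tested.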
